A study of Homo sapiens with 8 samples.

Results

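The canonical histone genes, which encode the proteins that package DNA into chromatin, were examined in libraries made from poly-A selected RNA. Members were chosen by their measured level: protein-coding genes named HIST1H to HIST4H that reached an FPKM (fragments per kilobase of gene, scaled to library size) of 1 in any of the 4 libraries of a table. This rule kept 27 of 70 such rows in the round 1 table and 27 of 71 in the round 2 table, out of 48162 and 58676 genes in all. The tables together held 30 member genes, of which 24 were members in both. They comprised 2 linker (H1) genes and 28 core genes, namely 8 of H2A, 9 of H2B, 5 of H3 and 6 of H4. Membership itself is therefore not a finding. Just outside the threshold in round 1 were HIST1H2BB, with a highest FPKM of 0.988, and HIST1H4J, with 0.902. Just inside were HIST2H2AA4, at 1.15, and HIST1H3A, at 1.21. In round 2 HIST1H2BN (0.976) and HIST1H2BB (0.945) stood just outside, and HIST1H4K (1.01) and HIST1H4B (1.44) just inside.

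All 8 libraries came from MDA-MB-231, a mesenchymal triple-negative breast cancer cell line, grown in 2 rounds. Round 1, at passage 8, held vehicle cells (1% DMSO) and cells given 1-SO, each kept dark or irradiated with UV-A. Round 2, at passage 32 to 34, held vehicle cells and cells given 1-S, again dark or UV-A. Both compounds were used at 10 µM for 24 h, and irradiation lasted 30 minutes under 8 UV-A bulbs emitting at 325 to 375 nm. 1-SO is a dibenzothiophene S-oxide joined through a methylene to triphenylphosphonium, a lipophilic cation, and 1-S is the same molecule without the oxygen on sulfur. Each compound group was 1 library, and only the vehicle groups had 2 libraries, 1 from each round. Nothing says that the libraries of a group came from more than 1 culture of each round, and irradiated and dark wells were on different plates. Compound and round cannot be told apart except through each round's own vehicle.

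Libraries held 15816049 to 22564754 counted reads, so that 3 reads, the floor used for a count of 0, corresponded to 0.133 to 0.19 CPM (counts scaled to library size). The cell line markers VIM (219 to 317 FPKM), CD44 (28.3 to 197) and AXL (123 to 329) were present in every library, while ESR1, PGR and CDH1 stayed at or below 0.14 FPKM. ERBB2, a marker taken as low in this line, had 9.78 to 29.2 FPKM. Of the markers of other cell types PTPRC, KRT5 and KRT14 were at or below 0.192 FPKM, and COL1A1 reached 7.09 FPKM in dark 1-S cells against 1.45 in the dark vehicle cells of that round. The level of PECAM1, the endothelial marker of that list, is not given here.

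Most canonical histone genes are transcribed during S phase and are replication-dependent. Their mRNAs end in a conserved stem-loop, bound by SLBP, in place of a poly-A tail, and are cut by a machinery that includes the U7 snRNP. H2A, H2B, H3 and H4 form the nucleosome core, and linker H1 binds the DNA that enters and leaves it. A poly-T selection therefore recovers mainly the fraction of these transcripts that carries a poly-A tail, such as transcripts that run past the stem-loop to a downstream polyadenylation site.

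The stem-loops of the core genes that the results turn on are shown because they mark where the replication-dependent transcript ends. The pattern searched was a 5′ arm GGNNCT, a loop TNTN and a 3′ arm AGNNCC in direct succession, on the transcript strand of GENCODE v29 (GRCh38). It was found in a transcript of 14 of the 30 members and in 221 of all 83129 protein-coding transcripts (0.266%). In 13 other members the annotated transcript held coding sequence only, so the loop could not be seen, and 3 (HIST1H1E, HIST1H2BJ and HIST1H4C) had noncoding sequence without a match. A match is a description of the letters, not evidence of its use. Capitals mark the 16 bases of the pattern, with 5 flanking bases in lower case.
HIST1H2AC stem-loop, chr6:26124664-26124689, plus strand: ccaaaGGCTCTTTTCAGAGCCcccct
HIST1H2BC stem-loop, chr6:26123467-26123492, minus strand: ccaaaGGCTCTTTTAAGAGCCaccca
HIST1H2BD stem-loop, chr6:26158582-26158607, plus strand: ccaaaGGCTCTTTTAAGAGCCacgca
HIST1H2AG stem-loop, chr6:27133510-27133535, plus strand: ccaacGGCTCTTTTCAGGGCCaccca
HIST2H2BF stem-loop, chr1:149811880-149811905, minus strand: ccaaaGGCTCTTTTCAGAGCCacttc
HIST1H4H stem-loop, chr6:26285126-26285151, minus strand: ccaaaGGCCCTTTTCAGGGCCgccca
HIST1H4B stem-loop, chr6:26026896-26026921, minus strand: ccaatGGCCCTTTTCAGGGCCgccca
The form of HIST1H2AC and HIST2H2BF was shared by 8 genes, HIST1H2BC and HIST1H2BD had a form of their own, and so had the H4 genes HIST1H4B and HIST1H4H. In 9 members an annotated transcript continued for 100 bases or more past the loop. It ran 1114 bases further in HIST1H2AC, 1761 in HIST1H2AG, 1479 in HIST2H2BF, 630 in the longer HIST1H4H transcript and 116 in HIST1H2BC. HIST1H2BD had a transcript that ended 39 bases after the loop and another, spliced over 2 exons, with no loop. The 12 core genes whose deposited gene length, in the table where it was longer, exceeded the coding sequence by 250 bases or more are called extended below, and the other 16 compact. In that longer table the extended models went at least 439 bases beyond the coding sequence and the compact ones at most 156. The class was kept in both rounds, also where the other table's model was short. HIST1H3H had 473 bases in round 1, with 411 coding. HIST1H2BK had only its 381 coding bases in round 2, and held 906 of the 2436 extended core reads in dark vehicle cells there. This split was made after the values were seen.

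Upstream sequence is shown for both linker genes and for HIST1H2BK, the most abundant member, because HIST1H1C and HIST1H2BK were both called lower with 1-S and HIST1H1E was not. The 250 bases before the RefSeq start (GRCh38.p14) are given 5′ to 3′ on the gene's strand, with matches on either strand in capitals. The letters searched were CCAAT (a box bound by NF-Y), TATAA (the core of the TATA box), AAACACA (the H1 box of linker histone promoters) and ATTTGCAT (the octamer bound by OCT1). 
HIST1H1C, chr6:26056471-26056720, minus strand: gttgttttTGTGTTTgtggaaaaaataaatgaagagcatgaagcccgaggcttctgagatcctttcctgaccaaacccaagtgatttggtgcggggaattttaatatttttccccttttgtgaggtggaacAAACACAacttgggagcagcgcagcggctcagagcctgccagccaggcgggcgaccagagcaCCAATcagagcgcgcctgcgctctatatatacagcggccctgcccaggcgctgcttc
HIST1H1E, chr6:26156079-26156328, plus strand: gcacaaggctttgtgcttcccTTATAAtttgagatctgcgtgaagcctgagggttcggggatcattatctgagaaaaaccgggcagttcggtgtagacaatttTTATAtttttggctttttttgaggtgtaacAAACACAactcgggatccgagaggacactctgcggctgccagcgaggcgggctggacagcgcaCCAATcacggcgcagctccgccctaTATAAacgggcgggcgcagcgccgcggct
HIST1H2BK, chr6:27146859-27147108, minus strand: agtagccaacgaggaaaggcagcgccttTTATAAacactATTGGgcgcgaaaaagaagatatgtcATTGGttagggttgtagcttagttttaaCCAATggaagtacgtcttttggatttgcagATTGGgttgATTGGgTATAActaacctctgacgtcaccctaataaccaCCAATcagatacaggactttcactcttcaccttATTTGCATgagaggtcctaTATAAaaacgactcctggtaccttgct
Promoters were found for 26 members. AAACACA was present in both linker promoters and in none of the 24 core ones, against 6.0% of 27305 RefSeq genes. CCAAT occurred in 23 of 26 member promoters (all genes 37.0%), and TATAA in 25 of 26 (all genes 22.5%). The octamer was in 4 of 7 H2A and 5 of 8 H2B promoters, in none of the H1, H3 or H4 ones, and in 2.0% of all genes. Some head-to-head H2A and H2B genes share most of these bases, so a site can count for both genes. The octamer of HIST1H2AG was also that of HIST1H2BJ, and the octamer of HIST2H2AC that of HIST2H2BE. 

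Member genes drew few reads. They summed to 324 CPM in dark vehicle cells of round 1, 420.0 in irradiated vehicle cells, 381 in dark 1-SO cells and 395 in irradiated 1-SO cells. In round 2 the sums were 163 CPM in dark vehicle, 195 in irradiated vehicle, 111 in dark 1-S and 137 in irradiated 1-S cells. The share of counted reads thus lay between 0.0111% and 0.0420% in every library. HIST1H2BK, HIST1H1C, HIST1H2BD and HIST1H2AC held 80.9% to 86.2% of these reads in round 1 and 60.2% to 67.4% in round 2. The tables used different gene models, so a member's level is compared only with libraries of the same round. HIST1H2BK, for example, had a length of 820 bases in round 1 and 381 in round 2. The median member had 20 to 50 reads in a library, so most members were measured with few reads.

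**Figure D1:**
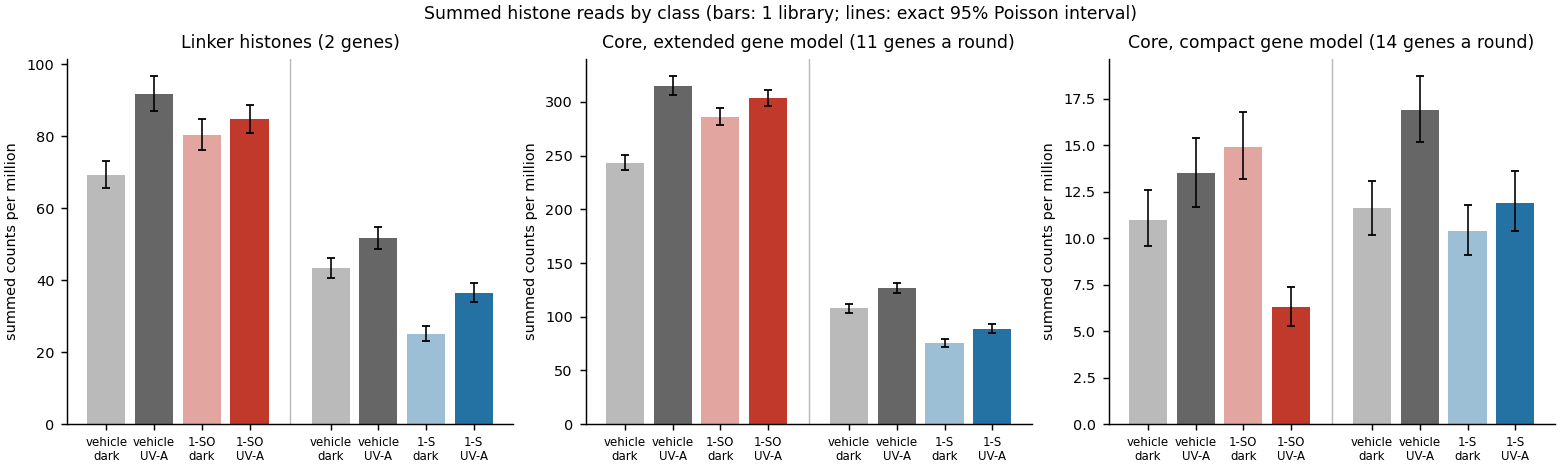
Summed CPM (linear axis) of the linker genes, extended core genes and compact core genes in each of the 8 libraries, with exact 95% Poisson intervals that cover counting error only. The compact core sum was 6.3 CPM in irradiated 1-SO cells, the lowest of round 1, and 16.9 CPM in irradiated vehicle cells of round 2, the highest of that round.

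The linker genes kept a nearly constant share of histone reads in round 1, and in round 2 outside dark 1-S cells. HIST1H1C held most of these reads, such as 1769 of 1881 in irradiated 1-SO cells, so the share says little about HIST1H1E. It was 21.4% in dark vehicle cells of round 1 (exact 95% binomial interval 20.4% to 22.5%), 21.8% in irradiated vehicle, 21.1% in dark 1-SO and 21.5% in irradiated 1-SO cells. In round 2 it was 26.6% in dark vehicle (25.2% to 28.1%), 26.5% in irradiated vehicle and 26.6% in irradiated 1-S cells. Dark 1-S cells stood lower, at 22.7% (21% to 24.4%). Only this library had an interval that did not overlap those of the other libraries of its round. The intervals cover counting error only.

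The summed level of the compact core genes stood apart in 1 library of each round, low in one and high in the other. Their summed level was 11 CPM (9.6 to 12.6, exact 95% Poisson interval) in dark vehicle cells of round 1, 13.5 in irradiated vehicle, 14.9 in dark 1-SO and 6.3 (5.3 to 7.4) in irradiated 1-SO cells. The interval of the irradiated 1-SO library overlapped none of the other 3. In round 2 the sum was 11.6 CPM (10.2 to 13.1) in dark vehicle, 16.9 (15.2 to 18.7) in irradiated vehicle, 10.4 (9.1 to 11.8) in dark 1-S and 11.9 (10.4 to 13.6) in irradiated 1-S cells. There the irradiated vehicle library overlapped none of the other 3. Of the 14 compact members of round 1 only 6 had FPKM 1 or more in all 4 libraries. HIST1H2AH, HIST1H2AJ, HIST2H2AA4, HIST1H3A, HIST1H3B, HIST1H4A and HIST1H4B were below 1 in irradiated 1-SO cells, and were members only through other libraries. HIST1H2AK was a member only through irradiated 1-SO cells. The choice of members thus bears on this sum, and its interval cannot be read as a test. No sum over the 6 genes was made. The extended core sum was 315 CPM in irradiated vehicle cells and 304 in irradiated 1-SO cells, and HIST1H2BK, HIST1H2AC and HIST1H2BD made up most of it. Other extended genes had log2 ratios as low as compact ones between these libraries, with −2.05 for HIST1H2AG, −1.50 for HIST2H2BF and −0.83 for HIST1H2BC. RNAs that lack a poly-A tail were summed beside this. The listed genes summed to 215 CPM in dark vehicle, 193 in irradiated vehicle, 257 in dark 1-SO and 296 in irradiated 1-SO cells of round 1, highest in the library where the compact core sum was lowest. Without RN7SL1, the most abundant, the listed genes of this kind summed to 4.58, 7.4, 7.71 and 5.54 CPM over the same 4 libraries of round 1. In round 2 the sums were 1.29, 3.86, 5.45 and 8.44 CPM, and 0.89, 2.67, 2.33 and 4.72 CPM without SNORD3A. The sums cover 8 listed genes in round 1, all with a read, and 21 in round 2, of which 9 had a read. They are therefore compared only within a round. The part of these RNAs in the compact core values was not tested.

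**Figure D2:**
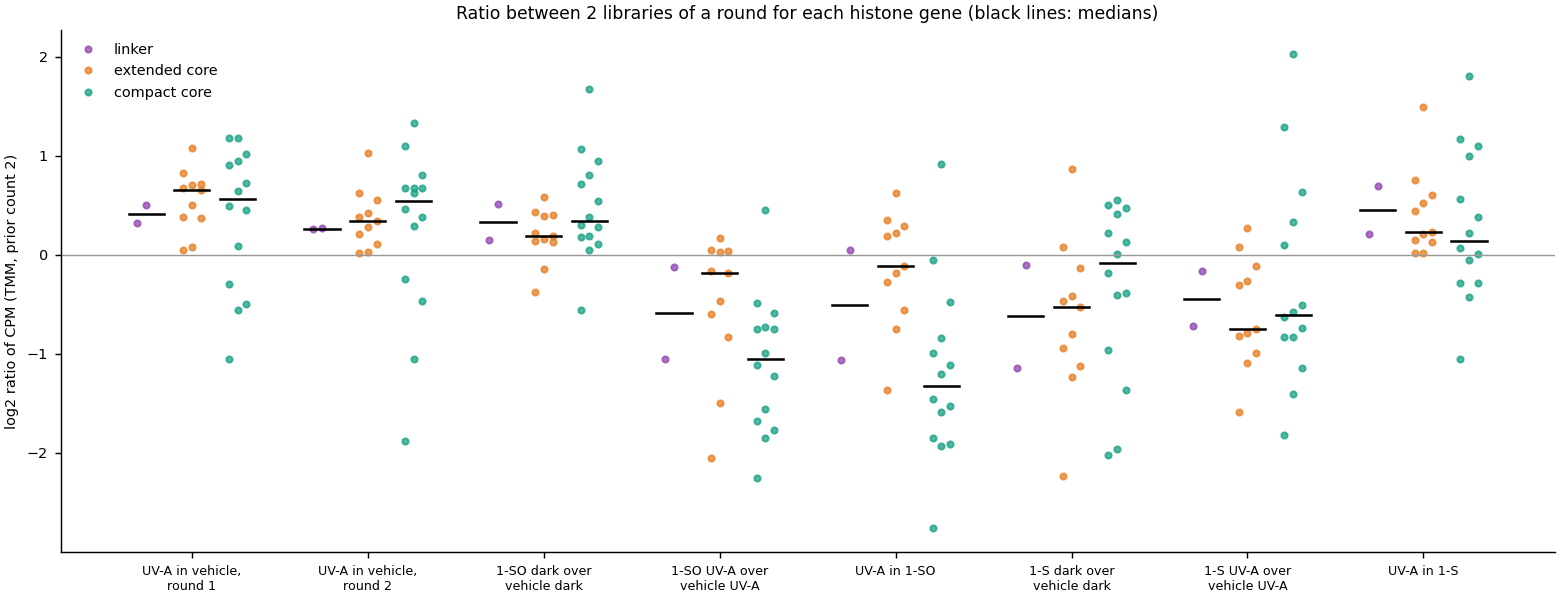
Log2 ratio of CPM (trimmed mean scaling, prior count 2) between 2 libraries of a round for each member, by class, with black lines at the medians. In irradiated 1-SO over irradiated vehicle cells the compact core median is −1.05 over all 14 members and −0.74 over the 6 at FPKM 1 or more in all 4 libraries.

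The linker and core genes were compared by the ratio of CPM between libraries of a round, as a description without a test. For UV-A over dark in vehicle cells, the median log2 ratio was 0.41 for linker, 0.66 for extended core and 0.57 for compact core genes in round 1, and 0.27, 0.34 and 0.55 in round 2. The median over all genes tested was 0.001 and 0.000. All 13 linker and extended core genes were above 0 in each round. With 1-SO in the dark the medians were 0.33, 0.19 and 0.34. In irradiated 1-SO over irradiated vehicle cells they were −0.58, −0.18 and −1.05. With 1-S in the dark they were −0.62 for linker, −0.53 for extended and −0.09 for compact core genes, and with 1-S and UV-A −0.44, −0.75 and −0.60. The linker value is a median of 2 genes. The linker median minus the core median was between −0.24 and 0.24 in the 8 library pairs. Over members at FPKM 1 or more in all 4 libraries of a round it changed sign in 2 pairs, from 0.17 to −0.04 for 1-SO under UV-A and from 0.24 to −0.28 for UV-A in 1-SO. Over those members the compact core median for UV-A in vehicle cells of round 1 was 0.29 in place of 0.57.

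Tests were run in 1 edgeR quasi-likelihood model of the 8 libraries, with the round as a term and 1 vehicle light response shared by both rounds. A change against vehicle thus draws on the vehicle libraries of both rounds and can differ from the ratio within a round. For HIST1H2AH with 1-SO under UV-A the model gave −1.71 log2 and the libraries of round 1 gave −0.75. The compound groups had no replicate, so the spread came from how the vehicle light response differed between the rounds, and was shared over genes. The p-values do not cover the difference between rounds itself, nor a spread between cultures of a compound group. Of the 30 members 27 passed the filter on low values, and 1 residual degree of freedom remained. A gene was called at an adjusted p below 0.05. UV-A in vehicle cells gave no call among 27 members, and 0% of the 12806 genes tested were called. At an unadjusted p below 0.05 stood 4 members, HIST1H2BD, HIST1H4H, HIST2H2BE and HIST2H2BF, all with higher values after UV-A, beside 350 of the 12806 genes. 1-SO in the dark gave no call and no member at that unadjusted p, with 0% of all genes called and 26 of 12806 at that p. UV-A in 1-S cells gave none either, with 0% of all genes, and 2 members at that unadjusted p, HIST1H1C and HIST1H2AG, beside 308 of 12806 genes. DESeq2 called 0 members in these 3 comparisons as well. The calls described below depended on the model: DESeq2 kept 1 of them, HIST1H1C with 1-S in the dark, among the 7 planned comparisons, and without the round as a term edgeR called none.

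Linker histone HIST1H1C and several core genes were lower with 1-S, in the dark and under UV-A. In the dark 5 of 27 members were called lower and none higher (18.5%). Of all genes 30.9% were called, 15.9% higher and 15% lower. Under UV-A 4 of 27 were called lower and none higher (14.8%), against 27.4% of all genes, with 13.7% in each direction. The members' shares were below the share of all genes called in either direction. All of these member calls were lower, and the share of genes called lower was near. It was 15% beside 18.5% of members in the dark, and 13.7% beside 14.8% under UV-A. S phase genes were lower in the same comparisons (24 and 20 of 27 called), and their part in the result was not tested. Of the 4 cell line markers tested CD44 and AXL were also lower with 1-S, by −0.87 ± 0.22 and −1.13 ± 0.26 log2 in the dark and by −1.27 ± 0.23 and −1.35 ± 0.26 under UV-A. COL1A1, the 1 tested marker of other cells, was higher by 2.34 ± 0.23 and 1.94 ± 0.23. PTPRC, KRT5 and KRT14 were at or near 0, and PECAM1, also listed, did not enter the model. The part of these markers in the result was not tested. In bulk samples fewer cells in S phase and less histone RNA per cell cannot be told apart.

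HIST1H1C (chr6:26055787-26056428, minus strand, 1 exon, coding sequence only in the annotation) encodes a linker histone. Its FPKM was 85.6 in dark vehicle, 112 in irradiated vehicle, 96.5 in dark 1-SO and 109 in irradiated 1-SO cells of round 1. In round 2 it was 51.7 in dark vehicle, 61.8 in irradiated vehicle, 24.0 in dark 1-S and 39.3 in irradiated 1-S cells. Both 1-S libraries lay below both vehicle libraries of the round, and the dark one was the lowest. In round 2 its gene model overlapped that of HIST1H2BB on the same strand. The log2 fold change was −1.13 ± 0.21 (SE) in the dark (edgeR adjusted p = 0.000132) and −0.73 ± 0.20 under UV-A (edgeR adjusted p = 0.00736). In round 1 its values with 1-SO lay within the range of the vehicle libraries, with −0.11 ± 0.19 under UV-A (edgeR adjusted p = 0.78).

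HIST1H1E (chr6:26156354-26157107, plus strand, 1 exon) encodes the other linker histone. Its FPKM in round 1 was 8.54 in dark vehicle, 12.7 in irradiated vehicle, 12.4 in dark 1-SO and 6.42 in irradiated 1-SO cells. In round 2 it was 13.46, 15.97, 12.87 and 14.95 in the order dark vehicle, irradiated vehicle, dark 1-S and irradiated 1-S. The irradiated 1-SO library was the lowest of round 1, and in round 2 the dark 1-S library was just below both vehicle libraries and the irradiated one between them. Under UV-A it was lower with 1-SO than with vehicle, at −1.0 ± 0.33 (edgeR adjusted p = 0.0498), and in 1-SO cells it was lower after irradiation, at −1.07 ± 0.35 (edgeR adjusted p = 0.0386), both log2. With 1-S in the dark it was −0.05 ± 0.31 (edgeR adjusted p = 0.932). With median-of-ratios scaling the first of these calls was lost (edgeR adjusted p = 0.059). HIST1H1C was thus called with 1-S and HIST1H1E with 1-SO, and a difference between the linker genes was not tested.

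**Figure D3:**
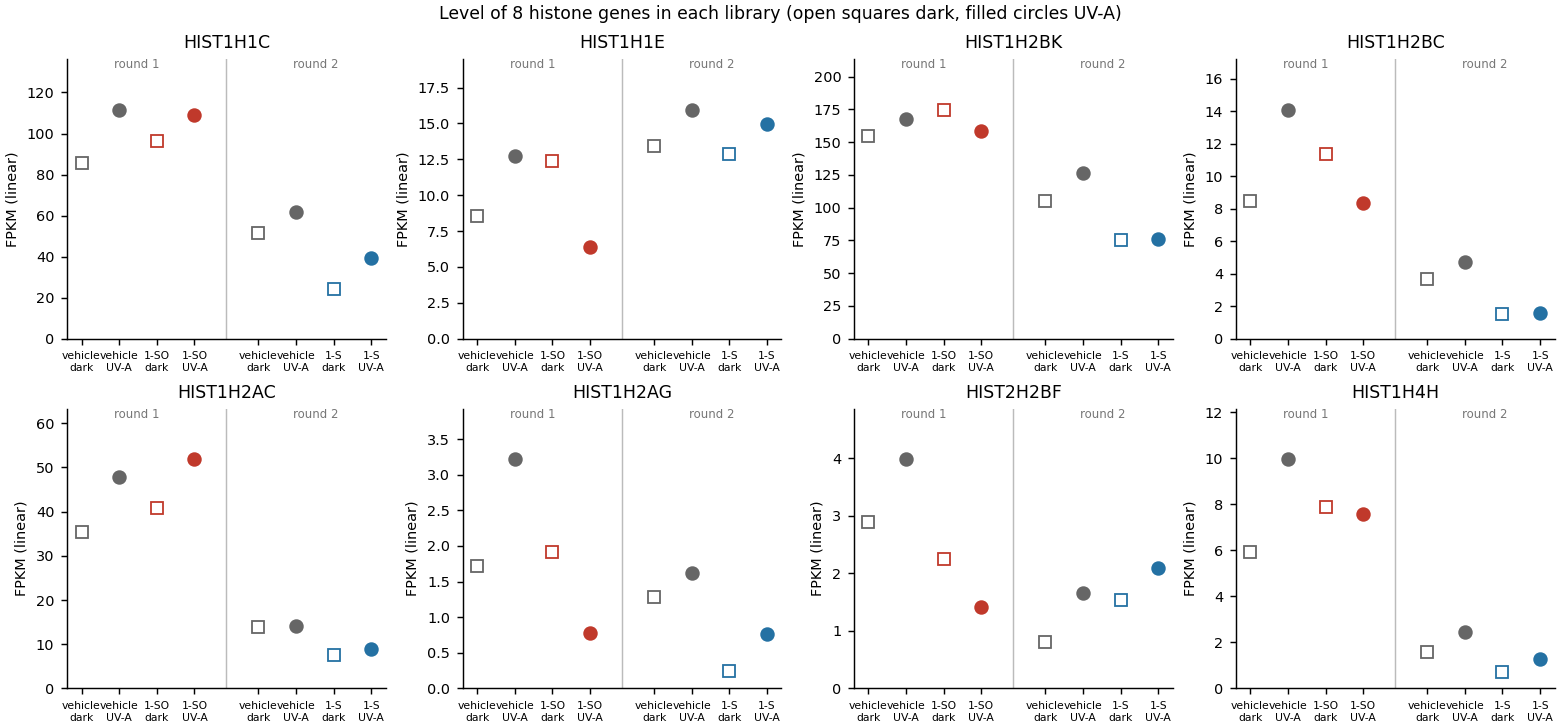
FPKM (linear axis) of 8 histone genes in each library, open squares for dark and filled circles for UV-A, with vehicle in grey, 1-SO in red and 1-S in blue. HIST1H1C was lowest in round 2 in dark 1-S cells (24.0) and HIST1H1E lowest in round 1 in irradiated 1-SO cells (6.42).

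HIST1H2BK (chr6:27146418-27146798, minus strand) encodes an H2B protein and was the most abundant member. In round 1 it had 154 FPKM in dark vehicle, 168 in irradiated vehicle, 175 in dark 1-SO and 158 in irradiated 1-SO cells. In round 2 it had 105 in dark vehicle, 126 in irradiated vehicle, 74.98 in dark 1-S and 76.2 in irradiated 1-S cells. Both 1-S libraries were below both vehicle libraries. In round 1 its model overlapped HIST1H4I on the opposite strand, and no source used here says whether counting used strand. The log2 fold change with 1-S was −0.59 ± 0.19 in the dark (edgeR adjusted p = 0.0202) and −0.74 ± 0.19 under UV-A (edgeR adjusted p = 0.00478).

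HIST1H2AC and HIST1H2BC encode H2A and H2B and lie head to head on chromosome 6, with 218 bases between their gene models in round 2. HIST1H2AC (chr6:26124145-26139116, plus strand) had 35.5, 47.9, 40.9 and 51.9 FPKM in dark vehicle, irradiated vehicle, dark 1-SO and irradiated 1-SO cells of round 1. In round 2 it had 13.98, 14.14, 7.47 and 8.80 in dark vehicle, irradiated vehicle, dark 1-S and irradiated 1-S cells. Both 1-S libraries were the lowest of their round. Its log2 fold change with 1-S was −0.86 ± 0.22 in the dark (edgeR adjusted p = 0.0034) and −0.84 ± 0.22 under UV-A (edgeR adjusted p = 0.00493). HIST1H2BC (chr6:26114873-26123926, minus strand) had 8.48, 14.1, 11.4 and 8.33 FPKM in round 1 and 3.67, 4.74, 1.54 and 1.57 in round 2, in the same orders. It too was lowest in the 1-S libraries. The change with 1-S was −1.73 ± 0.48 under UV-A (edgeR adjusted p = 0.00798), and −1.21 ± 0.47 in the dark, which missed the threshold (edgeR adjusted p = 0.0511). Both loops are printed above, and the models of both genes run past them.

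HIST1H4H (chr6:26277609-26285638, minus strand) encodes H4 and had 5.92, 9.97, 7.89 and 7.58 FPKM in round 1. In round 2 it had 1.58 in dark vehicle, 2.44 in irradiated vehicle, 0.720 in dark 1-S and 1.26 in irradiated 1-S cells, so that both 1-S libraries were below both vehicle libraries. The call was made in the dark, at −1.16 ± 0.44 (edgeR adjusted p = 0.0436), and under UV-A the value was −1.03 ± 0.41 (edgeR adjusted p = 0.0606). HIST1H2AG (chr6:27133042-27135291, plus strand), an H2A gene 291 bases from HIST1H2BJ, was called with both compounds. It had 1.71, 3.22, 1.91 and 0.784 FPKM in round 1 and 1.28, 1.61, 0.244 and 0.769 in round 2, in the orders above. The lowest value of each round was a compound library, irradiated 1-SO in round 1 and dark 1-S in round 2. Its log2 fold change was −2.29 ± 0.58 with 1-S in the dark (edgeR adjusted p = 0.00359), on 12 reads against 65 in dark vehicle cells.

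With 1-SO 3 members were lower under UV-A than in irradiated vehicle cells, and none was called in the dark. All 3 calls of 27 (11.1%) were lower, against 11.5% of all genes called, 4.47% higher and 7.07% lower. Of 27 S phase genes 21 were called lower beside them, and their part was not tested. For HIST1H2AG the change was −2.0 ± 0.48 (edgeR adjusted p = 0.0059). HIST2H2BF (chr1:149782689-149812373, minus strand), an H2B gene, had 2.90, 3.99, 2.26 and 1.42 FPKM in round 1 and 0.804, 1.65, 1.53 and 2.10 in round 2. It fell by 1.74 ± 0.49 on the log2 scale (edgeR adjusted p = 0.0194). Its gene model overlapped FCGR1A in both rounds, and it shares a run of 140 coding bases with HIST2H2BE, so reads may be split between genes. HIST1H1E was the third call, given above.

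Irradiation of 1-SO cells, compared with dark 1-SO cells, gave 2 calls among 27 members, both lower (7.41%), against 14.9% of all genes, 5.58% higher and 9.28% lower. HIST1H1E was one. The other was HIST1H4B (chr6:26026815-26027252, minus strand), an H4 gene with 10 reads in dark 1-SO cells and 0 in irradiated 1-SO cells, which puts it at least 4.2-fold lower, against a floor of 3 reads. Its levels in all libraries were low, at 0.298, 1.06, 1.58 and 0 FPKM in round 1 and 0.708, 1.05, 1.05 and 1.44 in round 2. At an unadjusted p below 0.05 stood 8 of 27 members, a share close to that of all genes (3667 of 12806).

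The remaining abundant core genes were not called in any of these 7 comparisons. HIST1H2BD, an H2B gene, had 29.7, 51.4, 40.5 and 56.3 FPKM in round 1 and 15.06, 16.04, 14.14 and 15.59 in round 2, and was not lower with either compound in a called comparison. Of the H3 genes HIST1H3C had 3.83, 4.27, 4.41 and 1.96 FPKM in round 1 and 3.45, 5.59, 3.90 and 3.19 in round 2. HIST1H3B had 2.93, 2.01, 3.69 and 0.954 in round 1 and 3.13, 5.59, 3.79 and 3.83 in round 2. Both had their lowest value of round 1 in irradiated 1-SO cells. HIST1H3H had 3.49, 3.88, 4.16 and 4.19 in round 1 and 1.29, 1.49, 1.41 and 1.65 in round 2. It showed no such minimum. Of the H2A genes HIST2H2AC had 3.41, 2.46, 4.25 and 1.44 in round 1 and 3.52, 5.54, 3.17 and 3.36 in round 2. HIST1H2AH had 2.68, 1.25, 2.95 and 0.690 in round 1 and 1.49, 3.45, 1.54 and 1.49 in round 2. The H4 gene HIST1H4C had 2.18, 1.83, 4.07 and 1.30 in round 1 and 1.73, 4.65, 2.74 and 1.21 in round 2. For HIST1H3C, HIST1H3B, HIST2H2AC, HIST1H2AH and HIST1H4C the irradiated 1-SO library was the lowest of round 1, and none of these differences was called. HIST1H4I had 7.26, 7.28, 4.25 and 6.16 FPKM in round 2 and was below 0.37 in round 1. The other 13 members had 0.192 to 11.7 FPKM in round 1 (median 1.45, 11 members) and 0 to 6.76 in round 2 (median 1.67, 10 members), with 0 to 315 reads a library. None of them was called in these 7 comparisons.

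**Figure D4:**
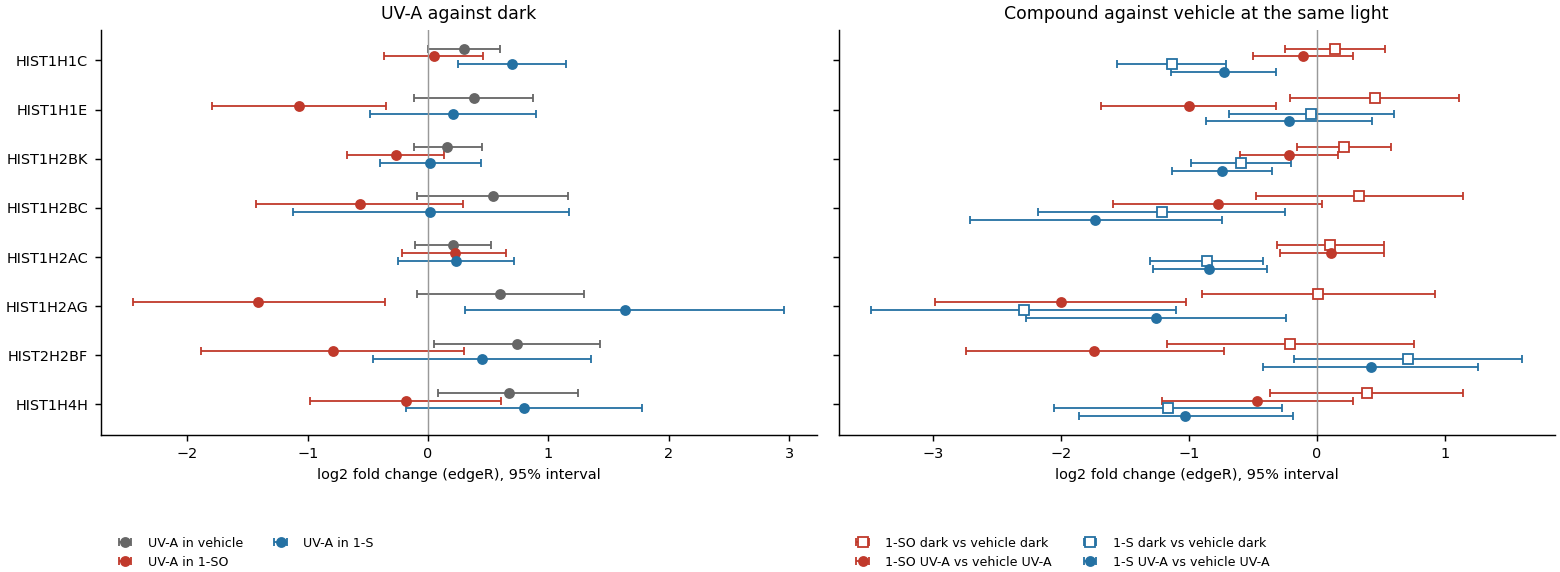
Log2 fold change with its approximate 95% interval in 8 histone genes, from the model of all 8 libraries. The left panel shows UV-A against dark and the right panel each compound against vehicle at the same light. HIST1H1C is lower with 1-S in both light conditions, and HIST1H1E is lower with 1-SO under UV-A.

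The compounds were compared at the same dose and time, in the dark and under UV-A. Each was set against the model's vehicle value for its round, with the vehicle light response shared by both rounds. These 2 contrasts, and the 2 differences between light responses, were added after the data were seen. In the dark 5 of 27 members (18.5%) differed, against 17.2% of all genes. All 5 were higher with 1-SO, as were 8.42% of all genes, and 8.75% were lower. The difference was 1.28 ± 0.26 log2 for HIST1H1C (95% interval 0.75 to 1.81, edgeR adjusted p = 0.000955), 2.30 for HIST1H2AG, 1.54 for HIST1H4H, 0.96 for HIST1H2AC and 0.80 for HIST1H2BK. HIST1H1E was not called, with a difference of 0.50 and an interval of −0.36 to 1.35. Under UV-A 2 of 27 members differed, against 3.55% of all genes (1.28% higher and 2.26% lower). HIST1H2AC was higher with 1-SO by 0.95 ± 0.27 (edgeR adjusted p = 0.046), and HIST2H2BF was lower with 1-SO by −2.15 ± 0.60 (edgeR adjusted p = 0.0387). With median-of-ratios scaling both UV-A calls were lost (edgeR adjusted p = 0.069 and 0.059), and so was that of HIST1H4H in the dark. For HIST1H1C the UV-A difference was 0.62, with an interval of 0.10 to 1.14 (edgeR adjusted p = 0.216).

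The light response of HIST1H1E was lower in 1-SO than in vehicle cells by −1.45 ± 0.43 log2 (edgeR adjusted p = 0.0479), and was the only call of 27 members, against 4.37% of all genes (1.47% higher and 2.9% lower). The call was lost with median-of-ratios scaling, at the same −1.45 (edgeR adjusted p = 0.067), and without the round as a term. HIST1H2AG responded to light by −1.41 ± 0.51 in 1-SO and by 1.64 ± 0.65 in 1-S cells, and the difference was −3.04 ± 0.82 (edgeR adjusted p = 0.0303). The compounds were in different rounds and this contrast holds no vehicle value, so compound and round cannot be told apart in it. In vehicle cells the log2 light ratio of the gene was 0.83 in round 1 and 0.34 in round 2. HIST1H2AG was the only call of 27 members in that comparison, against 4.37% of all genes (1.69% higher and 2.68% lower). The call was kept in 3 of 5 alternatives with a test of it and lost in 2, among them the fit without the round as a term. DESeq2 called no member there. The gene had 76 reads in dark and 39 in irradiated 1-SO cells, and 12 in dark and 33 in irradiated 1-S cells.

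Genes of the histone supply pathway were then counted from lists. Of 27 S phase genes, such as the replicative helicase subunit MCM5 and the deoxynucleotide enzymes RRM2 and TYMS, 24 were lower with 1-S in the dark, 20 with 1-S under UV-A, 21 with 1-SO under UV-A and 23 on irradiation of 1-SO cells, and none was higher. Their median log2 change was −1.43, −1.03, −0.96 and −1.20, compared with 0.003, 0.001, 0.007 and 0.000 over all genes. RRM2 changed by −2.32 ± 0.23 and E2F1, an activator of S phase genes, by −2.51 ± 0.26 with 1-S in the dark. The part of the S phase genes in the histone changes was not tested. No S phase gene was called for UV-A in vehicle cells or for 1-SO in the dark.

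Histone chaperones, which carry new histones to DNA, were lower in part. Of 19 tested, 11 were lower with 1-S in the dark, 10 with 1-S under UV-A, 8 with 1-SO under UV-A and 7 on irradiation of 1-SO cells, and none was higher. The share of all genes called lower was 15%, 13.7%, 7.07% and 9.28% in the same order. The list's median log2 change was −0.59, −0.50, −0.40 and −0.44, beside 0.003, 0.001, 0.007 and 0.0 over all genes. CHAF1B, a subunit of the chromatin assembly factor that loads H3 and H4 behind the replication fork, changed by −1.74 ± 0.27 with 1-S in the dark and by −1.28 ± 0.27 with 1-SO under UV-A. ASF1B, another H3 and H4 chaperone, changed by −1.24 ± 0.22 with 1-S in the dark. 

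The shares of all genes called, given above for each comparison, apply to the lists too. Of 17 factors for histone mRNA transcription and 3′ end processing, 3 were higher and 5 lower with 1-S in the dark, 2 and 2 with 1-S under UV-A, and 1 and 1 with 1-SO under UV-A. Of all genes 15.9% were higher and 15% lower with 1-S in the dark, so the count of higher factors lay near that share. HINFP, an activator of H4 transcription, was higher by 1.02 ± 0.21 with 1-S in the dark and by 0.78 ± 0.21 with 1-SO under UV-A. ZNF473, a zinc finger protein of the U7 snRNP, was higher by 1.18 ± 0.22, and the cap-binding subunit NCBP1 lower by −0.97 ± 0.19, with 1-S in the dark. SLBP had 69.2, 50.0, 67.5 and 40.5 FPKM in round 1 and 57.6, 59.7, 56.3 and 59.9 in round 2, in the orders used above. It was lowest in irradiated 1-SO cells, where it differed from dark 1-SO cells by −0.86 ± 0.21 (edgeR adjusted p = 0.0048).

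Replication-independent variants, whose mRNAs are polyadenylated, were tested for 10 genes. With 1-S in the dark 5 were lower and none higher, with 1-S under UV-A 3 were lower, and with 1-SO under UV-A 4 were lower and 1 higher. Of all genes 15%, 13.7% and 7.07% were called lower in these comparisons. The variants' median was −0.51, −0.44 and −0.10, beside 0.003, 0.001 and 0.007 over all genes. H2AFV, a variant of the H2A.Z type, changed by −1.30 ± 0.20 with 1-S in the dark and by −0.84 ± 0.20 with 1-SO under UV-A. The linker variant H1F0 had 152, 125, 153 and 209 FPKM in round 1 and 215.0, 230, 99.4 and 115 in round 2, and its change with 1-S in the dark was −1.27 ± 0.22 (edgeR adjusted p = 6.6e-05). The linker variant H1FX went the other way with 1-SO, by 0.73 ± 0.18 under UV-A (edgeR adjusted p = 0.0084).

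In the authors' deposited table for 1-S against vehicle in the dark, 1 of 27 members had an adjusted p below 0.05. It was HIST1H2AG, at a log2 fold change of −2.50 and an adjusted p of 0.0054 in the authors' deposited table. In the authors' deposited table for irradiated 1-SO against irradiated vehicle cells, HIST1H2AG was again the only such member of 27, at −2.11 (adjusted p = 0.0232). The authors' deposited table for 1-S against vehicle under UV-A had 0 such members of 27. HIST1H1C with 1-S in the dark was at −1.23 (adjusted p = 0.165 in the authors' deposited table). With 1-SO under UV-A, HIST2H2BF was at −1.56 (adjusted p = 0.451 in the authors' deposited table), and HIST1H1E, at −1.06, was also above 0.05. The share of all genes in these deposited comparisons was not counted.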

How the data were processed

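RNA for 8 libraries was enriched with poly-T beads and sequenced, per the labels' protocols. The authors deposited read counts per gene and FPKM values for each round, and both were used. Per the submitters' processing notes, the tools were edgeR 3.16.5, HTSeq 0.6.1, STAR 2.5, TopHat, DESeq2 and STAR-Fusion, and the builds hg19 and hg38, with no role stated for each. The authors also deposited log2 fold changes and p-values for comparisons of 2 libraries, which were read only for the members.

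Rounds were joined by gene identifier, and 572 genes by symbol. Genes with FPKM of at least 1 in 2 or more of the 8 libraries (12806) entered 1 edgeR 4.0.16 quasi-likelihood model on the deposited counts, with TMM factors within each round, the round as a term and 1 residual degree of freedom. P-values were Benjamini-Hochberg adjusted over all genes tested, and the code was tested on simulated data. The vehicle libraries of a round deviated together (correlation 0.86 over 12806 genes), and the labels give each round its own passage, so the round was kept as the pairing. Alternatives were DESeq2 1.42.0, limma 3.58.1 on log2(FPKM + 1), other scaling and filters, and no round term. Count intervals are exact and cover counting error only. Counting by gene model, strand or shared sequence can move reads between histone copies.

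Named with full values were both linker genes, the 3 highest genes of each core family and every other member called. Members and lists were chosen with earlier results of these data known. The extended and compact classes, 4 contrasts and the use of shared identifiers alone were added after seeing the data.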

Additional observations from a re-analysis of the deposited data

Results flagged for a closer look

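These differences between groups passed the edgeR quasi-likelihood test of the difference itself (adjusted p below 0.05 over all genes), in contrasts added after seeing the data. HIST1H1E, a linker histone gene, responded to UV-A differently in 1-SO and in vehicle cells, by −1.45 log2, a call lost with median-of-ratios scaling and without the round as a term. HIST1H2AG, an H2A gene, responded to UV-A differently in 1-SO and in 1-S cells, by −3.04 log2.

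Each compound was set against the model's vehicle value for its round, which draws on the vehicle libraries of both rounds. The value of 1-SO minus 1-S was then taken. In the dark the difference was 1.28 log2 for HIST1H1C, 2.3 for HIST1H2AG, 1.54 for HIST1H4H, 0.96 for HIST1H2AC and 0.8 for HIST1H2BK. Under UV-A it was 0.95 for HIST1H2AC and −2.15 for HIST2H2BF. With median-of-ratios scaling both UV-A calls and that of HIST1H4H were lost. Beside these, 22 of 27 S phase genes were called higher with 1-SO than with 1-S in the dark and 1 of 27 under UV-A. Of all genes 8.42% and 1.28% were called higher. The part of the S phase genes in the histone differences was not tested.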

How the results depend on the processing

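The 3 comparisons without a called member (UV-A in vehicle, 1-SO in the dark, UV-A in 1-S) had 0 under every alternative run. The other counts of called members depended on the model. Without the replicate block, that is without pairing by round, edgeR called 0 members in all 8 other comparisons, where the blocked model called 3 (1-SO under UV-A), 2 (UV-A in 1-SO), 5 (1-S in the dark), 4 (1-S under UV-A), 1 and 1 (UV-A in 1-SO minus vehicle and minus 1-S), 5 and 2 (1-SO minus 1-S, dark and UV-A). Of all genes the fit without the block called at most 0.141% in any of these 8 comparisons (1-S in the dark). DESeq2 called 1 for 1-S in the dark, 1 for 1-SO minus 1-S in the dark and 0 in the 6 others. Of all genes DESeq2 called 12.4% and 4.99% in the first 2 and 0.836% to 11.5% in the 6 others. Limma on log2(FPKM + 1) called 8 for 1-SO under UV-A, 9 for UV-A in 1-SO, 10 for 1-S under UV-A, 7 for UV-A in 1-SO minus vehicle and 3 for UV-A in 1-SO minus 1-S. Of all genes limma called 10.8%, 14.8%, 24.1%, 3.47% and 3.25% in that order. With shared identifiers only, UV-A in 1-SO gave 1 (14.8% of all genes), and HIST1H4B, joined by symbol, was not in that run. With FPKM of 1 in all libraries, the light response minus vehicle gave 2, that minus 1-S 0, and 1-SO minus 1-S under UV-A 1. Of all genes this filter gave 6.72%, 6.91% and 4.44%. HIST1H2AG (0.244 FPKM in dark 1-S cells) and HIST2H2BF (0.804 in dark vehicle cells of round 2) were thereby not in that run. Median-of-ratios scaling gave 0 for the light response minus vehicle (3.23% of all genes) and 0 for 1-SO minus 1-S under UV-A (2.61%). Without a filter the light response minus vehicle gave 2 (2.45% of all genes). The cause of the other shifts in these counts was not tested.

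The linker minus core median log2 ratio, over members at FPKM 1 in every library, turned from 0.17 to −0.04 for 1-SO under UV-A and from 0.24 to −0.28 for UV-A in 1-SO. It was −0.08 for UV-A in vehicle in round 1, −0.34 for 1-S in the dark and 0.3 for 1-S under UV-A. The cause was not tested. None of the 23 called log2 changes of members changed sign under any alternative run on them. Without the replicate block, HIST1H2BK was −1.62 and −1.71 (1-S, dark and UV-A), HIST1H2AC −1.8 and −1.85, HIST1H2BC −2.36 (1-S under UV-A), and 1-SO minus 1-S in the dark was 2.26 for HIST1H1C, 2.39 for HIST1H2BK, 2.51 for HIST1H2AC, 3.01 for HIST1H2AG and 2.45 for HIST1H4H, and under UV-A 2.5 for HIST1H2AC. On log2(FPKM + 1), which understates changes of low genes, HIST1H2AG was −0.76 (1-S in the dark), −1.13 (1-SO under UV-A), 0.76 (1-SO minus 1-S in the dark) and −1.21 (light response, 1-SO minus 1-S), HIST1H4H −0.52 and 0.82 (1-S and 1-SO minus 1-S, dark), HIST2H2BF −1.09 and −1.37 (1-SO and 1-SO minus 1-S, UV-A) and HIST1H4B −1.36. Leaving out 1 vehicle library moved HIST2H2BF with 1-SO under UV-A between −2.23 and −1.56, HIST1H2AC with 1-S in the dark between −0.94 and −0.61, and HIST1H2AC with 1-S under UV-A between −1.08 and −0.75, as values without a test. Low read numbers (median 20 to 50 a member) limit what the compact core genes can show.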

Other observations

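Of 9 decay factors 3 were called higher and 1 lower with 1-S in the dark (edgeR adjusted p below 0.05), and 2 higher and 2 lower with 1-SO under UV-A. DCP2, which removes the mRNA cap, was among the higher ones in both, at 0.70 and 0.75 log2. Of all genes 30.9% and 11.5% were called in these comparisons. Of 16 polyadenylation factors 1 was called higher and 2 lower with 1-S in the dark, where their median log2 change was −0.01 and 3 of 16 was below the share of all genes. With 1-SO under UV-A the median was 0.0.

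Some members differed between the rounds in reads or in gene model, and the part of the gene models in the reads was not tested. HIST1H4I, an H4 gene, had 3, 7, 5 and 11 reads in the libraries of round 1 and 212, 205, 120 and 152 in round 2. Its gene length was 1343 bases in round 1 and 1294 in round 2, and in round 1 it overlapped HIST1H2BK on the opposite strand. HIST2H2BF had a gene length of 1047 bases in round 1 and 3196 in round 2, and HIST1H4H 1034 and 2163. Gene models of 3 of 27 members overlapped another gene in round 1 and those of 7 of 27 in round 2.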
